A study of Mus musculus with 35 samples.

Results

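Broad Brg1 domains are the widest Brg1 peaks of the newborn mouse retina. They were selected on their measured width, as the Brg1-FLAG peaks at postnatal day 0 (P0) whose end lay at least 2500 bp beyond their start, and 1601 of 50861 Brg1 peaks (3.15%) met this rule. All other Brg1 peaks are called narrower Brg1 peaks here. The ChIP-Seq peaks were on the mouse genome build mm9. Gene names, exons and sequences at these loci were not analysed here, and loci are given by position.

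Brg1 is an ATPase of the BAF (SWI/SNF) complexes, which slide and evict nucleosomes and so open DNA at promoters and enhancers. Trimethylation of histone H3 lysine 4 (H3K4me3) marks promoters that are active or poised, acetylation of lysine 27 (H3K27Ac) marks active promoters and enhancers, and trimethylation of lysine 27 (H3K27me3) is laid down by Polycomb repressive complex 2 at silenced or poised genes. A site with H3K4me3 and H3K27me3 together is called bivalent. Between P0 and P21 the mouse retina turns from a tissue with dividing progenitor cells into one of mature neurons and glia. A stretch with many neighbouring H3K27Ac peaks is often a cluster of enhancers.

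Brg1 was measured in 1 library, from P0 retinae of Brg1-FLAG knock-in pups, in which the protein carries the FLAG tag that the antibody binds. There was no replicate of it, so the set of domains has no replicate error. Wild-type retinae were profiled at P0, P14 and P21 with 2 libraries of each mark and stage. At P12, wild-type retinae gave 1 library of H3K4me3, 1 of H3K27Ac and 2 of H3K27me3, and Brg1-deficient retinae (Chx10-Cre; Brg1 Lox/Lox, labelled BRG1 -/-) gave 1, 2 and 1. Chx10-Cre acts in retinal progenitor cells in a mosaic, so the Brg1-deficient retinae still held cells with Brg1. The study's paper states that mice with small eyes were preferred, in order to lower the share of such cells. Marks seen at the same domain in whole retinae can come from different cells, and fewer cells with a mark cannot be told apart from less of it per cell. The study's paper calls the ChIP-Seq replicates biological, while the labels do not tie them to animals.

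The libraries differed in how many peaks were called, and their read depth is unknown. Replicate 1 of H3K27Ac held 17588, 17433 and 18718 peaks at P0, P14 and P21, and replicate 2 held 29304, 50005 and 45833. The 3 H3K27Ac libraries of P12 held 40465 to 47404 peaks and the 8 H3K4me3 libraries held 18534 to 24124. The H3K27me3 antibody is labelled AB3 at P12 and AB1 at the other stages, so antibody and stage cannot be told apart there. A share of domains with H3K27Ac was therefore also computed with the 17433 strongest peaks of every H3K27Ac library, a choice made after seeing the data.

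The domains covered 6.14 Mb, which was 15.5% of the 39.5 Mb under all Brg1 peaks. Their widths ran from 2500 to 22420 bp with a median of 3293 bp, and 577 were under 3000 bp, 225 reached 5 kb and 27 reached 10 kb. Fold enrichment over input at the Brg1 summit (the seventh column of the peak list) had a median of 8.91 and a range of 1.84 to 35.7 in the domains. The median of the narrower Brg1 peaks was 4.22. Width and fold enrichment came from the library that defined the domains and are a description. Wider peaks tended to be higher, but width did not stand for height alone. Of the 1601 Brg1 peaks with the highest fold enrichment, 633 were broad domains, while domains were 3.15% of all Brg1 peaks. A fold enrichment of 10 or more was found at 578 of the 1601 domains and at 822 of the 49260 narrower peaks. The summit lay at a median of 49.5% of the domain's width.

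**Figure D1:**
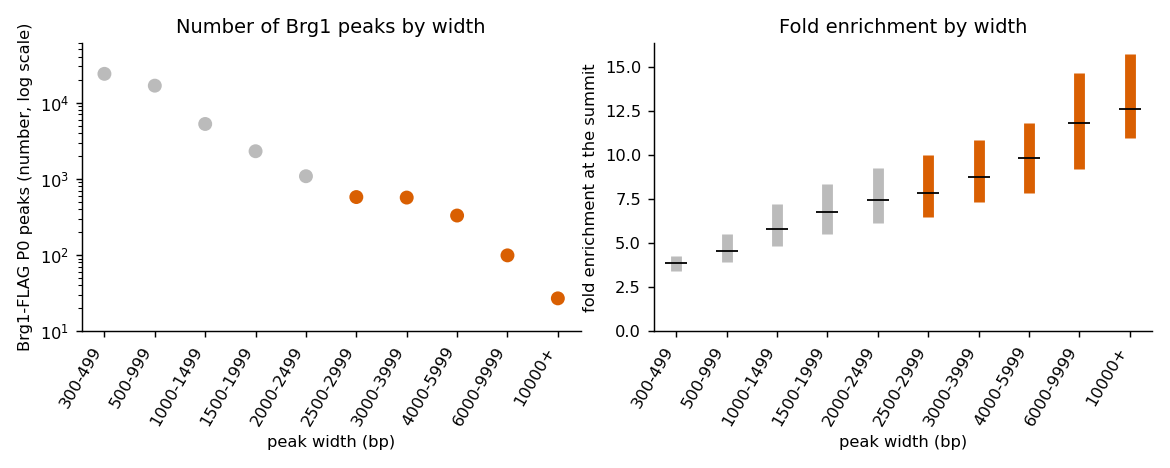
Left, number of Brg1-FLAG P0 peaks (log scale) by peak width in bp; right, Brg1 fold enrichment at the summit by width, with the black tick at the median and the bar from the first to the third quartile. Orange marks the broad domains and grey the narrower peaks: the median fold enrichment was 3.88 in the narrowest class and 12.6 in the class of 10 kb or more, with no step at 2500 bp.

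Fold enrichment overlapped between both sides of the width limit. The 3 widest narrower peaks measured 2499 bp and had Brg1 fold enrichments of 14.3 (chr17:4994783-4997281), 8.20 (chr3:86350183-86352681) and 7.03 (chr4:106458478-106460976). The 3 narrowest domains measured 2500 or 2501 bp and had fold enrichments of 8.44 (chr7:107810349-107812848), 8.04 (chr11:79404752-79407252) and 12.7 (chr3:122321286-122323786).

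Many domains lay near another domain. With domains linked when they were at most 50 kb apart, 852 had another domain in reach, 749 stood alone, and 330 fell into 54 clusters of 4 or more. The same count was not made for narrower Brg1 peaks, so nearness is not shown to be particular to the domains. A wide stretch of Brg1 called as several peaks would also count as a cluster. The largest cluster, chr8:122752678-123089012, held 31 domains that covered 173 kb of its 336 kb. The next largest was chr4:148143031-148331933 with 15 domains, then a cluster on chromosome 18 with 11, and clusters of 9 included chr12:109458588-109525339 and chr9:107504261-107639229. By chromosome, the domains were 3.99% of the Brg1 peaks of chromosome 10 and 1.75% of those of chromosome X. A domain had a median of 5 narrower Brg1 peaks within 10 kb, and 133 had none.

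The widest domain was chr8:122930741-122953160, which measured 22420 bp, lay in the chromosome 8 cluster and had a Brg1 fold enrichment of 12.6. No H3K4me3 peak touched it in either P0 library. The H3K4me3 fold enrichment, taken throughout as the highest among the peaks that overlap a domain, was 6.84 and 6.44 there at P14 and 25.3 and 5.27 at P21. H3K27Ac was present in every library, at 6.96 and 7.07 at P0, 14 and 21.5 at P14, and 11.6 and 12.8 at P21. No H3K27me3 touched this domain in any library. The P14 and P21 values of H3K27Ac thus lay above both P0 values.

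Other wide domains carried H3K27me3 later. The domain chr17:86005882-86020729 (14848 bp) had H3K27Ac fold enrichments of 14.1 and 16.6 at P0, 5.58 and 13.8 at P14, and no peak and 7.53 at P21, with the tallest summit inside the domain in 5 of the 8 libraries with a peak. Its share covered by H3K27me3 was 0% in both P0 libraries, 74.1% and 88.4% at P14, and 87.1% and 92.5% at P21. At chr5:143574070-143587533 (13464 bp) the H3K27Ac values were 22.1 and 20.0 at P0, 10.7 and 12.2 at P14, and 5.24 and 9.52 at P21. H3K27me3 covered none of it at P0 and 100% of it in all 4 libraries of P14 and P21, while H3K4me3 stayed present at 33.2 and 25.6 at P21. The domain chr2:105506255-105518308 (12054 bp) was partly covered by H3K27me3 at P0, over 31.1% and 38.2% of its width, and wholly covered at P14 and P21. These 3 domains had H3K4me3 in every library.

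The highest Brg1 fold enrichment, 35.7, was at chr5:123584178-123590617, a domain of 6440 bp. H3K27Ac there was 9.31 and 22.1 at P0, 18.1 and 43.9 at P14, and 16.8 and 13.2 at P21, so the replicates differed as much as the stages. All 15 domains with the highest Brg1 fold enrichment had H3K4me3 and H3K27Ac in both P0 replicates. Among all domains 901 (56.3%) had both marks in both P0 replicates, beside 22.9% of the narrower Brg1 peaks. Narrower peaks of similar Brg1 fold enrichment were not compared. The count is thus not shown to be particular to broad domains rather than to strong Brg1 peaks.

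At P0, most domains carried the active marks. An H3K27Ac peak overlapped 79.5% and 95.2% of the domains in the 2 P0 libraries, beside 25.2% and 40.0% of the narrower Brg1 peaks. For H3K4me3 the shares were 64.3% and 68.5% of the domains, beside 37.2% and 39.1% of the narrower peaks. H3K27me3 touched 18.3% and 21.4% of the domains and 17.5% and 20.4% of the narrower peaks, which is nearly the same. A wide region touches other peaks more easily than a narrow one, so the overlap was also taken at the single summit base of each Brg1 peak. There, the P0 shares in both replicates were 55.0% of domains and 18.4% of narrower peaks for H3K27Ac, 52.7% and 33.0% for H3K4me3, and 14.7% and 15.7% for H3K27me3. By base pairs covered, the domains and narrower peaks were about equal for H3K4me3, at 39.5% and 43.1% against 39.9% and 41.8% in the P0 libraries. For H3K27Ac they were at 26.8% and 54.5% against 18.5% and 34.2%, and for H3K27me3 at 14.7% and 16.7% against 17.1% and 19.8%. Neighbouring Brg1 peaks can share a histone peak and are not independent, so these differences are described and were not tested.

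**Figure D2:**
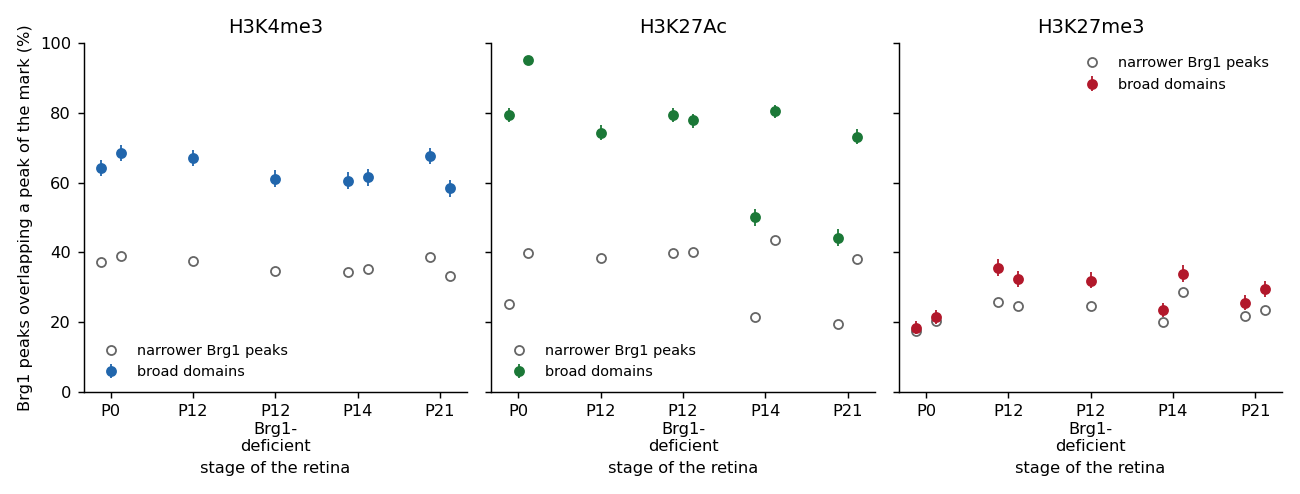
Share of Brg1 peaks (%) that overlap a peak of each mark by at least 1 bp, by stage, 1 point per library; filled points are the 1601 broad domains with 95% Wilson intervals, which cover counting error only, and open points the narrower Brg1 peaks. Filled points lie above open points in all H3K4me3 and H3K27Ac libraries, from 79.5% against 25.2% in replicate 1 of H3K27Ac at P0, and close to them for H3K27me3 at P0.

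Many of the widest H3K27Ac peaks lay in the domains. Of the 500 widest H3K27Ac peaks, 222 and 340 lay in broad Brg1 domains at P0, 162 and 171 at P14, and 109 and 154 at P21. Of all H3K27Ac peaks, 14.8% and 11.2% lay in domains at P0, 7.76% and 4.96% at P14, and 6.25% and 4.96% at P21. Of the 500 H3K27Ac peaks with the highest fold enrichment, 62 lay in domains in each P0 library, which is close to the share of all P0 peaks. Later the counts were 100 and 71 of 500 at P14, and 90 and 55 at P21, above the shares of all peaks there. The share of domains with H3K27Ac in both P0 replicates was 71.8% at widths under 3000 bp, 79.2% from there to under 4000 bp, 87.0% from there to under 6000 bp, and 94.4% at 6000 bp or more. The H3K4me3 shares in the same width classes were 64.1%, 62.3%, 61.5% and 69.8%. At the Brg1 summit base, which width does not favour, H3K27Ac was at 49.6%, 54.0%, 59.1% and 73.0%, and H3K4me3 at 55.6%, 51.9%, 50% and 50%. The base pairs under H3K4me3 were 45.8% in the narrowest class and 34.8% in the widest in replicate 1 of P0, and 48.6% and 38.9% in replicate 2, while those under H3K27Ac were 26.4% and 29.7%, and 51.1% and 59.4%.

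**Figure D3:**
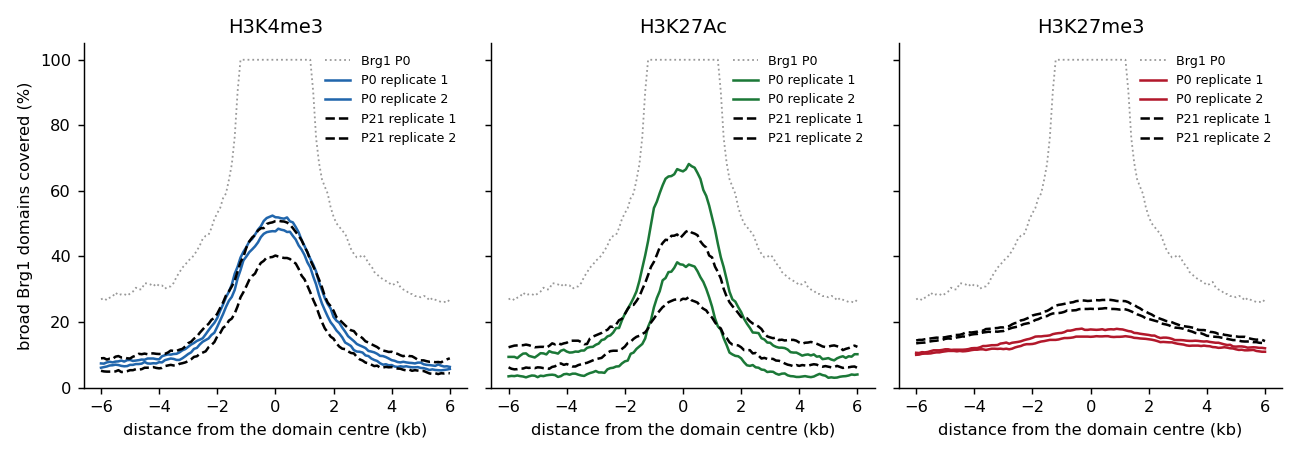
Share of the broad Brg1 domains (%) covered by a peak at each distance from the domain centre (kb), for H3K4me3, H3K27Ac and H3K27me3 in the P0 (coloured) and P21 (black, dashed) libraries; the dotted line is Brg1 itself. At the centre, H3K27Ac covered 37.5% and 66.0% of domains at P0 and 27.1% and 46.5% at P21. At 3 kb towards higher coordinates it covered 4.9% and 13.7% at P0. H3K27me3 was flatter at P0, with 15.5% and 17.7% at the centre and 13.4% and 14.5% at the same 3 kb.

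By the marks present in both P0 replicates, 711 domains (44.4%) had H3K4me3 and H3K27Ac without H3K27me3, and 361 (22.5%) had H3K27Ac alone. All 3 marks were found at 190 domains, the bivalent pair without H3K27Ac at 66, H3K4me3 alone at 48, H3K27me3 alone at 20, and H3K27Ac with H3K27me3 at 8. None of the marks reached both replicates at 197 domains (12.3%). Among the narrower Brg1 peaks, 2.03% had H3K27Ac alone and 54.3% had none of the marks. At the summit base, H3K27Ac alone was at 14.9% of the domains and 0.903% of the narrower peaks.

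The widest domain without H3K27Ac in either P0 library was chr4:153872231-153878944, of 6714 bp, with a Brg1 fold enrichment of 3.92. H3K27me3 covered 85.9% and 100% of it at P0 and 100% at P14 and P21, and no H3K4me3 or H3K27Ac peak touched it in any library. In the chromosome 8 cluster, chr8:123040707-123044891 (4185 bp) also lacked H3K27Ac at P0, and had it at 6.34 and 7.42 at P14, and at 7.27 in 1 of the 2 libraries of P21. The domain chr11:120025315-120029501 (4187 bp, Brg1 fold enrichment 7) had no peak of the 3 marks in any wild-type library.

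The change of H3K27Ac presence with age depended on how presence was counted. H3K27Ac overlapped 50.2% and 80.6% of the domains at P14, and 44.2% and 73.2% at P21. The 2 replicates of a stage differed by about as much as the stages did, and the replicate with more peaks had the higher share at each stage. With the same number of peaks in every library the shares were 79.1% and 86.4% at P0, 50.2% and 60.1% at P14, and 43.3% and 52.8% at P21, and both P0 values lay above all later values. Counted in both replicates, H3K27Ac touched 79.3% of the domains at P0, 50.1% at P14 and 44.1% at P21. With at least 50% of the domain covered in both replicates the order was reversed, at 17.7%, 20.3% and 20.7%. The share of the domains' base pairs under H3K27Ac was 40.6% ± 19.6 (SD, n = 2) at P0 and 31.7% ± 12.6 (SD, n = 2) at P21, and an exact two-sided permutation test gave p = 0.667. With 2 libraries a stage this test cannot go below 0.333.

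With all peaks, H3K4me3 was less frequent at P14 and H3K27me3 more frequent at both later stages. H3K4me3 overlapped 60.6% and 61.5% of the domains at P14, both below the 64.3% and 68.5% of P0, and 67.7% and 58.5% at P21. With the 18534 strongest peaks of every H3K4me3 library, the shares were 59.5% and 61.6% at P0 and 59.1% and 60.2% at P14. The 2 stages thus overlapped in this share, a choice made after seeing the data. The base pairs covered by these strongest peaks were 38.3% and 41.3% at P0, and 32.6% and 34.3% at P14. The base pairs under H3K4me3 were 41.3% ± 2.54 (SD, n = 2) at P0, 33.9% ± 1.18 (SD, n = 2) at P14 and 37.5% ± 7.95 (SD, n = 2) at P21, with an exact permutation p = 0.333 for P14 and 1.0 for P21. H3K27me3 overlapped 23.4% and 33.9% at P14, and 25.5% and 29.4% at P21, so all 4 values lay above the 18.3% and 21.4% of P0. H3K27me3 peaks covered 96.7 and 114 Mb of the whole genome at P0. They covered 127 and 213 Mb at P14, and 142 and 152 Mb at P21. A larger called area therefore cannot be told apart from a gain at the domains. The base pairs under H3K27me3 were 15.7% ± 1.37 (SD, n = 2) at P0 and 24.4% ± 1.64 (SD, n = 2) at P21, where the exact permutation test gave p = 0.333, the smallest it can give. Among the narrower Brg1 peaks H3K27me3 overlapped 20.4% or less at P0 and 19.9% to 28.5% later.

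The later presence of H3K27Ac differed between domains with and without H3K4me3. Of the 1270 domains with H3K27Ac in both P0 replicates, 630 (49.6%) had it in both P21 replicates and 272 (21.4%) in neither. Of the 901 of these that also had H3K4me3 in both P0 replicates, 545 (60.5%) kept it in both P21 replicates and 86 (9.5%) had it in neither. Of the 302 without H3K4me3 in either P0 replicate, 58 (19.2%) had it in both P21 replicates and 160 (53.0%) in neither. The same split was seen at the narrower Brg1 peaks with H3K27Ac at P0. There 55.4% of those with H3K4me3 kept H3K27Ac and 6.24% had it in neither P21 replicate, and 11.5% of those without H3K4me3 kept it and 69.2% had it in neither. Over all narrower peaks with H3K27Ac at P0, 51.9% kept it and 11.2% had it in neither. The split is thus not particular to the domains, and the differences were not tested, since Brg1 peaks are not replicates. H3K27Ac height in replicate 2 of P0 also differed. For domains with H3K27Ac in both, 1 and neither P21 replicate, the medians were 11.6, 9.19 and 7.52 with H3K4me3. Without H3K4me3 they were 6.67, 6.81 and 7.41. Whether the split follows from the P0 height was not tested.

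The split held in each library. In the 490 domains without H3K4me3 at P0, H3K27Ac was at 61.8% and 91.6% at P0, 24.3% and 57.3% at P14, and 21.2% and 49.0% at P21. With equal numbers of peaks it was at 61.2% and 74.5%, 24.3% and 28.0%, and 20.8% and 21%. In the 1015 domains with H3K4me3 at P0, equal numbers of peaks gave 88.7% and 92.8% at P0, 63.9% and 77.8% at P14, and 55.4% and 70.3% at P21. At narrower Brg1 peaks without H3K4me3, equal numbers gave 3.05% and 6.60% at P0, and 7.09% and 7.35% at P21. With all peaks these were 3.14% and 16.7% at P0, and 7.39% and 15.7% at P21, where the stages overlapped.

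**Figure D4:**
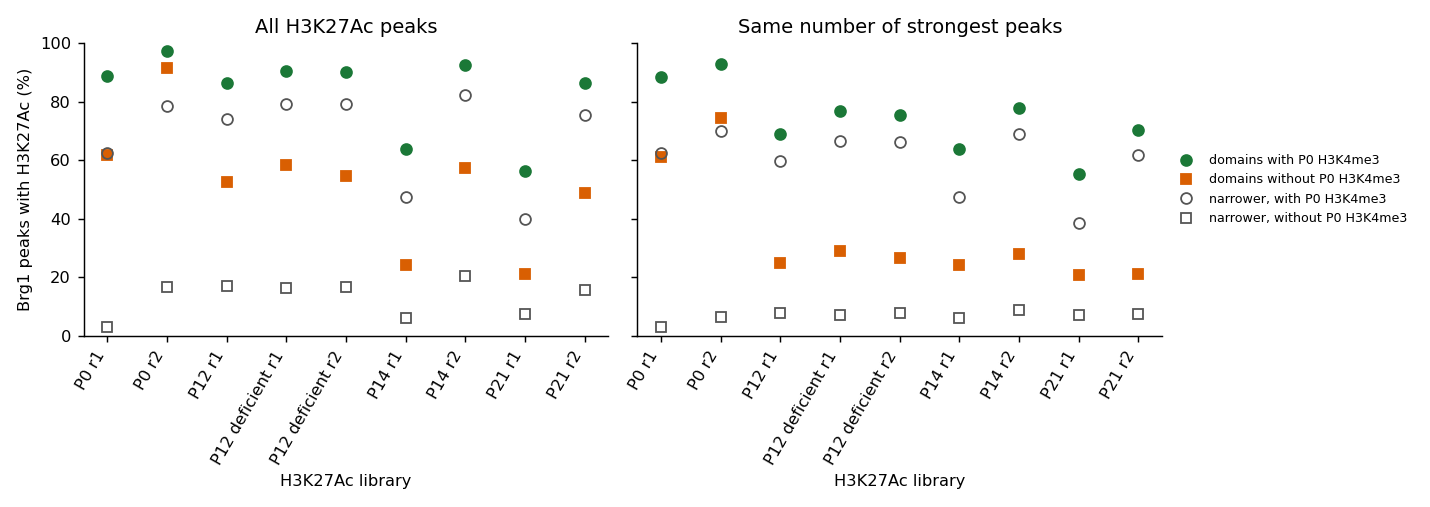
Share of Brg1 peaks (%) with H3K27Ac in each of the 9 H3K27Ac libraries (r1 and r2 are replicates, "deficient" the Brg1-deficient retinae), with all peaks (left) and with the same number of strongest peaks per library (right). Circles are Brg1 peaks with H3K4me3 in both P0 replicates and squares those with it in neither; filled symbols are broad domains. Filled squares stand at 61.2% and 74.5% at P0 and between 20.8% and 29.0% in the later libraries on the right.

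Where H3K27Ac had no peak by P21, H3K27me3 was often present if H3K4me3 had been there at P0. Among the 901 domains with H3K4me3 and H3K27Ac at P0, H3K27me3 was in both P21 replicates at 52 of 545 domains (9.54%) that had H3K27Ac in both P21 replicates, at 142 of 270 (52.6%) that had it in 1, and at 65 of 86 (75.6%) that had it in neither. At narrower Brg1 peaks of the same kinds the shares were 1.70%, 24.3% and 60.3%, in the same order. The domain groups already differed at P0, when H3K27me3 was at 14.1%, 27% and 46.5% of them. Among domains without H3K4me3 at P0 it was rarer, at 33 of the 160 (20.6%) with no H3K27Ac peak at P21. In all, 158 of 1250 domains without H3K27me3 in either P0 replicate had it in both at P21 (12.6%, beside 7.45% of narrower peaks), and 53 of 284 with it in both P0 replicates had it in neither (18.7%, beside 18.2% of narrower peaks).

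Single domains are named here as examples of these courses. Some were picked among the largest H3K27Ac changes under a looser filter described below, where the lack of later peaks was part of the choice. Their likeness across replicates is therefore a description and not support. At chr11:95864560-95869257 (4698 bp), H3K27Ac was 11.3 and 10.4 at P0 and absent from all 7 later libraries, P12 included. H3K4me3 there was 45.3 and 43.5 at P0, 5.74 and 6.93 at P14, and 5.47 and no peak at P21. H3K27me3 covered 31.0% and 26.8% of the domain at P0 and all of it later. The domain chr3:34559335-34566603 (7269 bp) had H3K27Ac of 11.8 in both P0 libraries and no later peak, while its H3K27me3 went from 94.5% and 69.7% at P0 to 100% in the later libraries. At chr2:131331321-131334467 (3147 bp), H3K27Ac was 12.6 and 13.8 at P0 and absent later, and no H3K27me3 touched the domain in any library. The same held at chr17:56441722-56445042 (3321 bp), with H3K27Ac of 12.6 and 18.2 at P0 and none at P14 or P21, while H3K4me3 remained at 46.5 and 18.2 at P21.

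The opposite course was seen at chr19:23208564-23211886 (3323 bp). It was bivalent at P0, with H3K4me3 of 12.1 and 22.0, H3K27me3 over 100% of its width in both libraries and no H3K27Ac peak. At P14 H3K27Ac was 16.2 and 22.0, at P21 it was 15.2 and 16.7, and H3K27me3 was at 0% in all 4 libraries. At chr14:70949722-70952365 (2644 bp), H3K4me3 had no P0 peak and reached 18.6 and 27.2 at P14 and 50.6 and 15.3 at P21. The tallest H3K4me3 summit lay inside this domain in 0 of the 6 libraries with a peak, so these heights belong to peaks with their summit beside it. Its H3K27Ac went from no P0 peak to 6.77 and 10.9 at P14, and its H3K27me3 from 28.9% and 21.4% to 0% at P14 and P21. At chr14:65201682-65211788 (10107 bp), H3K27me3 covered 65.3% and 49.5% at P0 and 0% later, while H3K27Ac was present throughout at 14.7 and 16.3 at P0 and 21.5 and 12.4 at P21.

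Fold enrichments were then compared between stages with limma (moderated linear models) on log2(fold enrichment + 1), scaled to the same median in each library, so that a change is relative to the Brg1 peaks tested. The pseudocount of 1 makes the change of low peaks look smaller. Only Brg1 peaks with a peak of the mark in all 6 wild-type libraries were tested, p-values were Benjamini-Hochberg adjusted over all of them, and calls had an adjusted p under 0.05. Domains without a peak in some library, 1002 of 1601 for H3K27Ac, are outside this test. P14 and P21 were both compared with the same P0 libraries, so their calls share controls.

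For H3K27Ac, 6652 Brg1 peaks were tested, 599 of them domains. From P0 to P14, 15 domains were called higher (background 1.62% of all tested) and 4 lower (background 0.256%). From P0 to P21, 35 were called higher (background 3.05%) and 1 lower (background 0.466%). These are 2.5% and 0.668% of the domains at P14, and 5.84% and 0.167% at P21. The median log2 change of the domains was 0.12 at P14 and 0.18 at P21, beside -0.01 and 0.00 over all peaks tested. Without scaling, the domains stood at 0.32 and -0.23, beside 0.19 and -0.40 over all peaks, so the sign at P21 depends on the scaling. The counts depend on single libraries. For P14 the 15 became 5 without replicate 1 of P0, 2 without replicate 2 of P0, 2 without replicate 1 of P14 and 29 without replicate 2 of P14, and for P21 the 35 became 14, 6, 3 and 50 in the same order. With quantile normalization the calls were 4 higher and 4 lower at P14, and 22 higher and 5 lower at P21, and without scaling no domain was called.

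Domains called higher included chr15:31295322-31299563 (4242 bp), where H3K27Ac was 6.50 and 7.49 at P0, 30.8 and 37.3 at P14, and 8.76 and 15.6 at P21. The values of P0 and P14 did not overlap, and the log2 change was 1.92 ± 0.42 (SE; limma adjusted p = 0.00127). Without replicate 1 of P14 the adjusted p was 0.206, without replicate 1 of P0 0.0642, and without replicate 2 of P0 0.0677. H3K27me3 covered all of this domain at P0 and none at P14 or P21. At chr3:55583717-55588520 (4804 bp), H3K27Ac was 5.34 and 9.65 at P0, 17.4 and 23.8 at P14, and 23.4 and 22.9 at P21, with a log2 change of 1.99 ± 0.42 from P0 to P21 (limma adjusted p = 0.000741). That call was lost without replicate 1 of P0 (adjusted p = 0.0992) and without replicate 1 of P21 (adjusted p = 0.188).

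At chr5:140384573-140389053 (4481 bp), H3K27Ac was 2.83 in both P0 libraries, 16.6 and 30.5 at P14, and 13.4 and 15.5 at P21. The changes were 2.40 ± 0.42 at P14 (limma adjusted p = 2.73e-05) and 2.42 ± 0.42 at P21 (limma adjusted p = 2.53e-05), and both calls held without any 1 library. The summit of the tallest H3K27Ac peak lay inside this domain in only 2 of 9 libraries, so most of its heights were those of peaks with their summit beside it. At chr10:79624363-79630283, with a change of 2.46 ± 0.42 at P14 (limma adjusted p = 2.37e-05), it lay inside in 4 of 9. With a looser filter, a peak in at least 2 libraries, this change was no longer called (adjusted p = 0.0617), nor were those of chr15:31295322-31299563 (adjusted p = 0.0832) and chr3:55583717-55588520 (adjusted p = 0.113). Restricted to histone peaks with their summit inside the domain, an alternative chosen after seeing the data, 9 of the 15 domains higher at P14 and 29 of the 35 higher at P21 could still be tested, and 9 and 27 of them were called.

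Called lower at P14 was chr4:6915542-6919010 (3469 bp, Brg1 fold enrichment 16.3). H3K27Ac there was 21.9 and 24.6 at P0, 6.80 and 9.50 at P14, and 4.53 and 9.20 at P21. The change to P14 was -1.60 ± 0.42 (limma adjusted p = 0.0128), and it was no longer called without any 1 of the 4 libraries, with adjusted p of 0.0568 to 0.193. The domain called lower at P21 was chr1:183771012-183773558 (2547 bp), with 21.1 and 19.6 at P0, and 3.91 and 6.24 at P21, and a change of -1.45 ± 0.42 (limma adjusted p = 0.0213). It too was lost without any 1 of its 4 libraries, with adjusted p of 0.0869 to 0.234. The looser filter ended both calls (adjusted p = 0.114 and 0.11). No Brg1 peak changed H3K27Ac between P14 and P21 in limma (background 0.0%), and 36 domains had an unadjusted p under 0.05.

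The looser filter, a peak in at least 2 of the 6 libraries, brought in domains whose H3K27Ac was called at 1 stage only, with missing peaks set to 0. It then called 176 domains lower and 7 higher at P14 (backgrounds 4.27% and 5.44% of 22034 Brg1 peaks), and 200 lower and 7 higher at P21 (backgrounds 4.65% and 6.2%). At P14, 175 of the 176 had passed the filter through their P0 peaks alone and had to be lower. At P21 the same held for 175 of the 200. These counts therefore describe the filter and are not a test of the domains. Of the 176 lower at P14, 125 had no H3K4me3 in either P0 replicate and 56 had H3K27me3 in both P21 replicates. Of all 1601 domains, 490 and 393 (24.5%) did. The marks of the 176 describe the domains that the filter let in, and the difference from all domains was not tested.

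For H3K4me3, 16184 Brg1 peaks were tested, 873 of them domains. From P0 to P14, 14 domains were called higher (background 0.791%) and 24 lower (background 1.87%). From P0 to P21, 24 were called higher (background 1.01%) and 55 lower (background 5.65%), which is 2.75% and 6.30% of the domains tested. The median change of the domains was 0.00 at P14 and -0.06 at P21, beside 0.00 and -0.04 over all peaks. Quantile normalization turned the balance, to 25 higher and 16 lower at P14, and 40 higher and 25 lower at P21. Without scaling 2 and 5 domains were called higher and none lower. Without replicate 1 of P0, replicate 2 of P0, replicate 2 of P14 and replicate 3 of P14 in turn, the 24 lower at P14 became 12, 6, 2 and 5 and the 14 higher became 9, 13, 7 and 8. Without the replicates 1 and 2 of P0 and 1 and 2 of P21 in turn, the 55 lower at P21 became 28, 22, 28 and 63, and the 24 higher became 14, 19, 23 and 22. With the looser filter, 40 domains were higher and 74 lower at P14 (backgrounds 2.5% and 7.31%), and 52 higher and 86 lower at P21 (backgrounds 3.18% and 8.77%). Missing peaks were again set to 0. At 81 domains H3K4me3 was in both P0 replicates and neither P14 replicate, and at 33 the reverse, so their direction was fixed. The counts of this filter are therefore a description and not a test of the domains.

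Between P14 and P21, 1 domain was called higher in H3K4me3 (background 0.0309%) and none lower (background 0.00618%), with 50 domains at an unadjusted p under 0.05. With the looser filter these were 6 and 1 (backgrounds 0.422% and 0.102%), with the same limit as above. The 1 domain was chr11:69177504-69180235, where H3K4me3 was 45.3 and 45.5 at P0, 9.74 and 9.79 at P14, and 59.3 and 49.3 at P21. The tallest summit lay inside it in only 3 of 8 libraries, and the call was lost without replicate 2 of P14 (adjusted p = 0.716) and without replicate 3 of P14 (adjusted p = 0.197).

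Of the 24 domains called higher in H3K4me3 at P21, 18 had H3K27Ac in both P0 replicates, 1 had H3K27me3 in both P0 replicates and none had it in both P21 replicates. Of the 873 domains tested, 810 had H3K27Ac in both P0 replicates. H3K27me3 was in both P0 replicates at 224 of the 873 and in both P21 replicates at 266. At chr10:80868152-80879856 (11705 bp), H3K4me3 was 3.76 and 5.01 at P0, 16.4 and 28.4 at P14, and 57.9 and 23.6 at P21, a change of 2.84 ± 0.37 at P21 (limma adjusted p = 7.99e-06). H3K27Ac there was 6.76 and 7.15 at P0, 18 and 23.9 at P14, and 19.3 and 14 at P21. At chr4:148262499-148268255 (5757 bp), inside the chromosome 4 cluster, H3K4me3 was 4.64 and 4.15 at P0, 27.4 and 21.4 at P14, and 53.3 and 22.9 at P21, a change of 2.75 ± 0.36 (limma adjusted p = 1.03e-05). The domain chr11:116672953-116676970 (4018 bp) rose from 4.65 and 4.53 to 51.7 and 18.1 at P21, a change of 2.51 ± 0.36 (limma adjusted p = 4.28e-05). At these 3 domains no P0 value overlapped a later one, the tallest summit lay inside in all 8 libraries, and the P21 calls held in all alternatives run. H3K27me3 touched none of them in any library.

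Most domains called lower in H3K4me3 carried H3K27me3. Of the 55 called lower at P21, 34 (61.8%) had H3K27me3 in both P0 replicates and 49 (89.1%) in both P21 replicates, beside 25.7% and 30.5% of the 873 domains tested. H3K27Ac had no peak in either P21 replicate at 27 of the 55, beside 64 of the 873 tested. At chr10:42301775-42306078 (4304 bp), H3K4me3 was 49.9 and 49.3 at P0, 7.21 and 10.1 at P14, and 12.5 and 6 at P21, a change of -2.36 ± 0.36 at P21 (limma adjusted p = 0.000106). H3K27me3 covered all of this domain in every library, and H3K27Ac was 9.91 and 9.23 at P0 with no later peak. At chr10:111707190-111709749 (2560 bp), H3K4me3 was 47.5 and 47.1 at P0, 20.6 and 24.4 at P14, and 10.3 and 6.68 at P21, a change of -2.35 ± 0.37 (limma adjusted p = 0.000144). H3K27me3 there went from 0% at P0 to 100% at P14 and P21. At chr2:105506255-105518308, one of the widest domains, H3K4me3 went from 45 and 42.8 to 16.4 and 5.53, a change of -2.07 ± 0.38 (limma adjusted p = 0.000708). These 3 calls were lost with unscaled heights (adjusted p of 0.0678 to 0.157) and held in the other alternatives run.

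**Figure D5:**
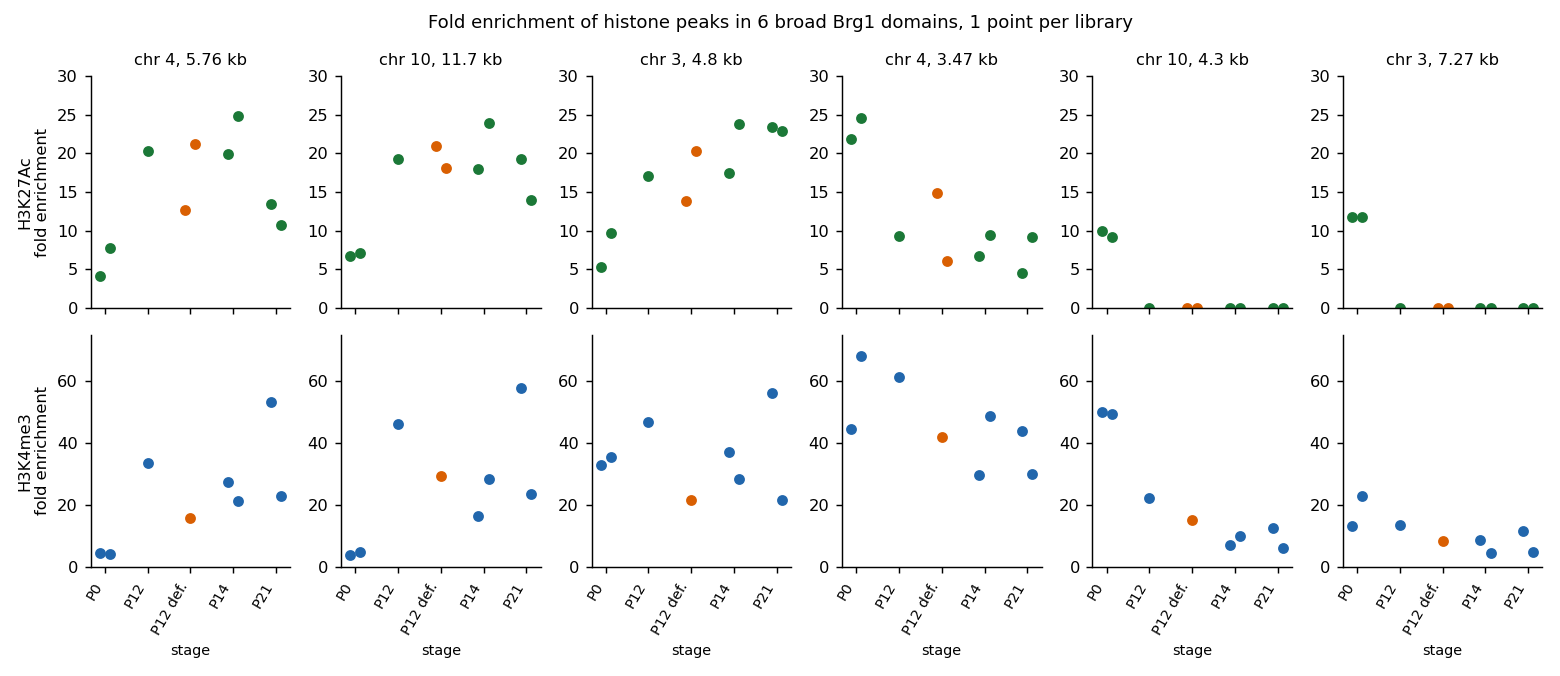
Highest fold enrichment of H3K27Ac (top) and H3K4me3 (bottom) peaks overlapping 6 broad Brg1 domains, 1 point per library and 0 where no peak was called, by stage; orange points are Brg1-deficient P12 retinae ("P12 def."). In the 3 columns at the left H3K27Ac at P0 was 4.17 to 9.65 and later 10.7 to 24.8, and in the 2 columns at the right no H3K27Ac peak was called after P0.

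At P12 the question was whether marks at the domains differ in Brg1-deficient retinae. H3K27Ac overlapped 74.4% of the domains in the wild-type library and 79.6% and 77.9% in the 2 Brg1-deficient libraries, and with equal numbers of peaks 53.7%, 60.2% and 58.3%. The narrower Brg1 peaks were at 38.3%, 39.8% and 40.0%. Of the 1191 domains with H3K27Ac in wild-type P12 retinae, 1163 (97.6%) and 1152 (96.7%) had it in the Brg1-deficient replicates, 1138 (95.5%) in both and 14 in neither. The 2 P14 wild-type libraries, set beside these as a measure of how lists differ, found 798 and 1166 of the same 1191 domains. Of the narrower Brg1 peaks with H3K27Ac at wild-type P12, 87.2% had it in both Brg1-deficient replicates.

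H3K27Ac in both Brg1-deficient libraries but not in wild-type P12 retinae was found at 66 domains (4.12%, and 2.70% of the narrower peaks). Of these 66, 49 had H3K27Ac in both P0 replicates, beside 1270 (79.3%) of all 1601 domains. P0 H3K27Ac was thus not more frequent than among all domains at these 66. At 11 domains (0.687%, and 0.560% of the narrower peaks) H3K27Ac was also absent from both P14 libraries. The widest of them, chr12:12816013-12821248 (5236 bp), had H3K27Ac of 6.82 and 9.44 at P0, 4.48 and 3.99 in Brg1-deficient P12 retinae, and no peak in the wild-type P12, P14 and P21 libraries. Next came chr7:123423424-123428591 (5168 bp), with 4.37 and 6.48 at P0 and 3.63 and 3.79 in Brg1-deficient retinae. Neither had H3K4me3 or H3K27me3 in any library. No domain had H3K27Ac in the wild-type P12 and both P14 libraries and in neither Brg1-deficient library, beside 8 narrower Brg1 peaks. With 1 wild-type library at P12 these counts have no replicate check.

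In limma, none of 6643 Brg1 peaks, 599 of them domains, was called different in H3K27Ac between Brg1-deficient and wild-type P12 retinae (background 0.0%), and 6 domains had an unadjusted p under 0.05 (123 over all peaks). The single wild-type library was assumed to vary like the other groups. With 1 library in that group the test had little reach, and its count of 0 does not show that the genotypes were alike. The log2 ratio of Brg1-deficient over wild-type H3K27Ac at the domains had medians of -0.05 and -0.07 and SDs of 0.49 and 0.48 (n = 1124 domains). The SD between the 2 Brg1-deficient replicates was 0.48. The ratios therefore spread about as widely between genotypes as between replicates. A difference at single domains smaller than this spread was not detectable here.

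H3K4me3 was found in the Brg1-deficient library at 976 of the 1075 domains (90.8%) that had it in wild-type P12 retinae, and the P14 libraries found 90.0% and 91.6%. At the narrower Brg1 peaks the Brg1-deficient library found 91.3%. The log2 ratio of Brg1-deficient over wild-type H3K4me3 had a median of 0.03 and an SD of 0.48 over 869 domains, beside replicate SDs of 0.50 at P0, 0.56 at P14 and 0.53 at P21. At least 2-fold higher were 14 domains (background 2.09%) and at least 2-fold lower 19 (background 2.58%), which is 1.61% and 2.19% of the domains. This comparison has 1 library on each side and no test. Without scaling the median ratio was -0.55, which is the difference between the 2 libraries as a whole.

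The most extreme ratios were at few domains. At chr7:7250375-7253589 (3215 bp), H3K4me3 was 44.4 in wild-type and 6.39 in Brg1-deficient P12 retinae, and between 31.1 and 82.9 in the 6 other wild-type libraries. H3K27Ac at this domain was 18.5 in wild-type and 20.0 and 23.4 in Brg1-deficient P12 retinae, and H3K27me3 covered none of it in wild-type P12 retinae and 68.1% in Brg1-deficient retinae. At chr11:98600858-98605345 (4488 bp), H3K4me3 was 34.9 in wild-type and 60.4 in Brg1-deficient retinae, and H3K27Ac 10.2 against 23.7 and 24.7, where limma gave a log2 difference of 0.90 with an adjusted p of 0.9998 for H3K27Ac. At chr12:85909933-85914861, H3K4me3 was 19.1 against 3.23, and 7.51 and 10.8 at P14. H3K27me3 covered 94.7% of that domain in both wild-type P12 libraries and none of it in the Brg1-deficient library. These domains were picked for their ratio.

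H3K27Ac at P12 was present in both genotypes at domains that had it in the later wild-type stages. At chr19:23208564-23211886, H3K27Ac was 14.5 in wild-type and 15.9 and 23.9 in Brg1-deficient retinae. At chr10:80868152-80879856 it was 19.3 against 20.9 and 18.1, and at chr4:148262499-148268255 it was 20.3 against 12.7 and 21.2. At chr11:95864560-95869257 no H3K27Ac peak was called in any P12 library, and H3K27me3 covered all of it in the 3 P12 libraries. H3K4me3 was lower in the Brg1-deficient library at some of these domains. It was 42.0 in wild-type and 15.1 in Brg1-deficient retinae at chr19:23208564-23211886, a scaled log2 ratio of -0.89, and 33.8 against 15.8 at chr4:148262499-148268255, a ratio of -0.51. It was 46.2 against 29.5 at chr10:80868152-80879856, a ratio of -0.06. At chr14:70949722-70952365, H3K27me3 covered 36.5% in the Brg1-deficient library and 0% in both wild-type P12 libraries. These differences were not tested, and the SD of the H3K4me3 ratios between P0 replicates was 0.50.

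H3K27me3 touched 35.7% and 32.4% of the domains in wild-type P12 retinae and 31.9% in the Brg1-deficient library. Of the domains with it in wild-type replicates 1 and 2, the Brg1-deficient library found 467 of 571 (81.8%) and 460 of 518 (88.8%). The wild-type replicates found 84.1% and 92.7% of each other's. At the narrower Brg1 peaks the Brg1-deficient library found 81.8% and 86.2%, and the wild-type replicates 84.5% and 88.3%. The shortfall was thus seen at domains and narrower peaks alike, with 1 Brg1-deficient library and no test. That library also held the fewest H3K27me3 peaks of P12, 20120 beside 22577 and 25391 in wild-type retinae.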

How the data were processed

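ChIP-Seq peak lists of 27 libraries were analysed, out of 35 samples of which 8 were inputs. Per the submitters' processing notes the tools were CASAVA, BWA 0.5.9-r26, Picard 1.65, SAMtools, R 2.14.0, MACS2 2.0.9, bedtools 2.17.0 and SICER 1.1, on mm9. The authors called Brg1, H3K4me3 and H3K27Ac peaks per library against input, and deposited each peak's fold enrichment and its −log10 q. H3K27me3 islands were deposited with a score per island, which was not used. Read depth behind the peaks is unknown.

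Peaks were taken to overlap at 1 bp or more with Python 3.11.15, numpy 2.4.6, pandas 2.3.3 and scipy 1.17.1. The height of a mark at a Brg1 peak is the highest fold enrichment among overlapping peaks, or 0 where no peak was listed. limma 3.58.1 in R 4.3.3 was run on log2(height + 1) over all Brg1 peaks with a peak in every library, all 3 wild-type stages in 1 fit (all H3K27Ac libraries for P12), with Benjamini-Hochberg adjustment, after tests on simulated data. Groups came from the sample labels. The loci named were the 15 widest, the 15 highest, the 6 largest changes in each direction among the calls of each comparison, the 3 on each side of the width limit, the 10 widest without H3K27Ac or with H3K27me3 at P0, the 10 widest with H3K27Ac in 1 genotype at P12, and the 5 largest and 5 smallest H3K4me3 ratios at P12. Loci were also named from the H3K27Ac calls of the looser filter, a peak in at least 2 libraries. Domains, lists and tests were chosen with earlier results of these data known. The planned counts of domains at promoters and per gene list, and a check of retinal marker genes, were not run, since the annotation at hand was of another genome build.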

Additional observations from a re-analysis of the deposited data

How the results depend on the processing

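The number of domains was 2684 at a width of at least 2000 bp, 1024 at 3000 bp, and 3649 with Brg1 peaks up to 500 bp apart merged. With at least 50% of a domain covered, H3K27Ac was in both replicates at 17.7% of domains at P0, 20.3% at P14 and 20.7% at P21, H3K4me3 at 34.5% at P14 and 33.8% at P21, and both active marks at 15.9% at P0. With the strongest 50% of histone peaks, H3K4me3 was at 40.5%, 36.3% and 35.7% of domains at P0, P14 and P21, H3K27Ac at 45.8% and both at 34.2% at P0. A peak in either replicate gave 80.6% for H3K27Ac and 34.7% for H3K27me3 at P14, and 73.3% for H3K27Ac at P21. Leaving out 1 replicate gave 50.2% to 80.6% for H3K27Ac at P14 and 44.2% to 73.2% at P21.

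Calls of domains are given as H3K27Ac higher and lower at P14, then P21, then H3K4me3 likewise, each against P0, and only where they moved over 1.5 times. Leaving out 1 library gave 2 to 29 and 0 to 2, 3 to 50 and 0 to 2, then 7 to 13 and 2 to 12, 14 to 23 and 22 to 63. A peak in 2 libraries gave 7 and 176, 7 and 200, then 40 and 74, 52 and 86. Without scaling they were 0 and 0, 0 and 0, then 2 and 0, 5 and 0, and the median H3K4me3 log2 ratio at P12 was -0.55. Quantile normalization gave 4 higher at P14, 22 and 5 at P21, then 25 higher at P14, and 40 and 25 at P21. The mean covered height gave 31 and 7, 65 and 20, then 28 and 85, 47 and 125. Fits of only the 2 stages compared gave 23 and 8, 7 lower at P21, then 23 and 39 at P14. A mean-variance trend gave 7 and 4 H3K27Ac domains lower at P14 and P21, and a pseudocount at the 5th percentile 2 lower at P21. Peaks with their summit inside gave 23 domains higher in H3K4me3 at P14. For H3K4me3 from P14 to P21, leaving out 1 library gave 0 to 3 higher and 0 to 5 lower, a peak in 2 libraries 6 and 1, summits inside 2 and 2, and the unscaled and quantile fits 0 higher. The cause of these differences was not tested, except that the filters change which Brg1 peaks are tested.

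Replicate numbers did not pair the samples: deviations of same-numbered libraries correlated at 0.004, -0.02 and 0.26 for H3K27Ac, and at -0.005, 0.18 and 0.02 for H3K4me3. With a replicate block, 23 domains were higher and 9 lower in H3K27Ac at P14, 51 and 7 at P21, and 36 and 89 in H3K4me3 at P21. H3K4me3 at P14 carries other numbers and allowed no block. No call of a named domain changed sign. Other directions did change: the order of the stages for H3K27Ac reversed when at least 50% of a domain had to be covered, the median H3K27Ac change at P21 was negative without scaling, and quantile normalization turned the H3K4me3 calls from mostly lower to mostly higher. The restrictions to equal numbers of peaks, in the shares of domains and in the split by H3K4me3, and to summits inside were chosen after seeing the data. Alternatives that need gene positions were not run.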
